A study of Mus musculus with 8 samples.

Results

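In mouse tail epidermis, 10 genes of extracellular matrix breakdown were followed, the matrix metalloproteinase (MMP) genes Mmp2, Mmp3, Mmp9, Mmp11, Mmp14, Mmp15 and Mmp28 and the genes Timp1, Timp2 and Timp3 of their tissue inhibitors. They were chosen by name, 10 of 46983 genes in the count table, and all 10 had enough counts to be among the 15638 genes tested. The study is about loss of Ppp1r8 from the epidermis, the gene of NIPP1, which binds protein phosphatase PP1 in the nucleus. RNA of 8 mice aged 8 weeks was sequenced, 1 library per mouse, 4 SKO and 4 CTR. SKO mice had the genotype K14-Cre/+ Ppp1r8 fl/-, with the Cre transgene, 1 floxed Ppp1r8 allele and 1 minus allele. CTR mice had the genotype K14-Cre/+ Ppp1r8 fl/+, with the same transgene, 1 floxed and 1 wild-type allele. The K14 promoter drives Cre in basal keratinocytes and their descendants, so that in CTR mice 1 wild-type allele is left in those cells, while in SKO mice the minus allele is also carried by every other cell of the animal. Both groups were of the same strain, which carries Tg(KRT14-cre)1Amc/J and the alleles Ppp1r8tm1Ave and Ppp1r8tm1.1Itl.

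MMPs are zinc-dependent proteases that are made as inactive proenzymes and that cut collagens, laminins and other matrix and cell surface proteins. Most are secreted, and the membrane-type enzymes, among them MMP14 and MMP15, stay on the cell surface. TIMPs block the active site of the proteases, and in wounded skin the balance between both shapes how keratinocytes detach from the basement membrane and migrate.

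Library totals lay between 16696212 and 21571935 counts. Ppp1r8 itself had 35.4, 28.4, 34.3 and 47.4 CPM (counts scaled to a common library size after normalization for composition) in SKO 1 to 4, against 40.4, 34.7, 41.6 and 35.0 CPM in CTR 1 to 4, a log2 fold change of -0.06 (SE 0.14, adjusted p = 0.789). No source used here states which exons Cre deletes, so this value does not check the genotype labels. Keratinocyte markers were the most abundant of the marker lists in all libraries, with summed levels of 62669 to 80946 CPM in SKO and 40801 to 45073 CPM in CTR. In this list Krt1 and Krt10 were higher and Krt15 and Itga6 lower in SKO. The 4 Y-linked genes checked had 0 counts in all 8 libraries. SKO 4 and CTR 2 stood apart in some genes of vascular smooth muscle and pericytes: Rgs5 had 25.8 and 2.41 CPM there and at most 0.124 CPM in the other 6 libraries, and Myh11 had 15.99 and 4.14 CPM there and at most 0.256 CPM in the other 6. Acta2 was also highest there, at 31.9 and 17.4 CPM. Cspg4 of the same list did not set them apart, at 82.9 and 71.9 CPM against 102.1 CPM in SKO 1, and was higher in SKO (edgeR adjusted p = 0.0114). Des had 0 counts in SKO 4 and 4 in CTR 2. Results are therefore also given without these 2 libraries.

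Of the 10 genes, Mmp9 was higher and Timp3 was lower in SKO epidermis, and 8 did not pass the threshold. These 2 calls stand beside 23.7% of all tested genes that were called, so the share of called genes among the 10 was close to that over all genes. All calls use edgeR's quasi-likelihood test over the 15638 genes with Benjamini-Hochberg adjustment and a threshold of 0.05. Of all tested genes, 11.5% were called higher and 12.2% lower in SKO. The median log2 fold change was -0.13 over the 10 genes and -0.00 over all genes tested. The groups did not overlap for Mmp9 and Timp3, as was the case for 26.2% of all tested genes.

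**Figure D1:**
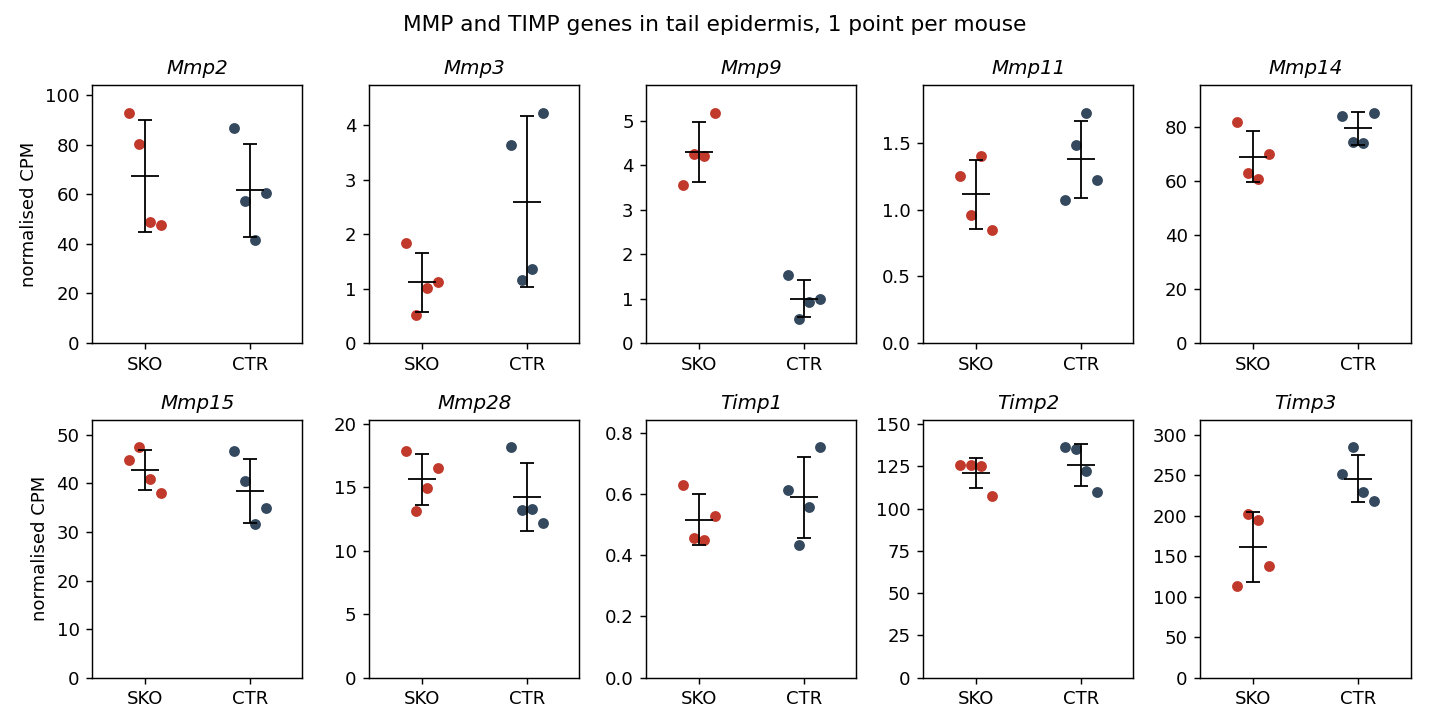
Normalised CPM of the 10 genes, each panel with its own axis from 0, SKO left and CTR right, 1 point per mouse, with the mean (long bar) and SD (capped line). The 4 SKO points of Mmp9 lie above 3.5 CPM and the CTR points at or below 1.54 CPM, the SKO points of Timp3 lie below all CTR points, and the groups overlap in the other 8 panels.

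Mmp9 encodes gelatinase B, which cuts denatured collagens and the collagen IV of basement membranes, and is made by keratinocytes at wound edges and by neutrophils and macrophages. The gene (ENSMUSG00000017737.2, chromosome 2, 164940780 to 164955850, GRCm38) had 68, 84, 84 and 98 counts in SKO 1 to 4 and 30, 11, 15 and 21 counts in CTR 1 to 4. These were 3.56, 4.25, 4.21 and 5.19 CPM in SKO and 1.54, 0.529, 0.928 and 0.989 CPM in CTR. All 4 SKO libraries were above all 4 CTR libraries, and the spread within SKO was small. Mean levels were 4.30 ± 0.669 CPM in SKO and 0.996 ± 0.414 CPM in CTR (SD, n = 4 each), a 4.31-fold rise (log2 fold change 2.11, SE 0.28, adjusted p = 0.00111). The log2 fold change was 1.79 without SKO 4 and CTR 2 (adjusted p = 0.00653).

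Neutrophil and macrophage markers were measured beside Mmp9. The 10 neutrophil markers summed to 25.8 to 311 CPM in SKO and 11.01 to 28.4 CPM in CTR. The calprotectin genes S100a8 and S100a9 were the 2 of 4 tested markers of the list that were higher in SKO, beside 11.5% over all genes tested. Stressed keratinocytes also express these 2 genes, which made up most of the SKO sums. The others tested were Mpo, the myeloperoxidase gene, at 1.48 ± 0.885 CPM in SKO and 4.74 ± 4.01 CPM in CTR (log2 fold change -1.65, adjusted p = 0.0604), and Cxcr2, a chemokine receptor gene, at 3.07 ± 0.928 CPM in SKO and 2.395 ± 0.592 CPM in CTR (adjusted p = 0.368). DESeq2 called 3 of the list, a count that takes both directions together. The untested granulocyte markers Ly6g, Elane and Ngp were at or near 0, with 3 counts of Ly6g and 1 of Elane in SKO 3, none of either in the other 7 libraries and none of Ngp in any. Camp, also untested, had 1, 7, 2 and 10 counts in SKO 1 to 4, against 4, 6, 6 and 3 counts in CTR 1 to 4. Csf3r, untested too, had 1, 3, 0 and 0 counts in SKO 1 to 4, against 7, 0, 0 and 0 counts in CTR 1 to 4. S100a8 had 12.8, 100.4, 46.1 and 163.8 CPM in SKO 1 to 4, and 3.12, 3.61, 9.59 and 3.48 CPM in CTR 1 to 4. Within SKO, S100a8, the neutrophil sum and Mmp9 ranked the libraries in the same order, SKO 1 lowest, then SKO 3, SKO 2 and SKO 4. For Mmp9, SKO 2 and SKO 3 were tied at 84 counts each (4.25 and 4.21 CPM), so their order rests on the scaling alone. Within CTR the highest library was CTR 3 for S100a8 and the sum and CTR 1 for Mmp9. The 7 macrophage and monocyte markers summed to 19.96 to 23.9 CPM in SKO and 14.9 to 20.01 CPM in CTR, and 0 of 3 tested markers passed the edgeR test (0 also at an unadjusted p under 0.05, with DESeq2 and with limma-voom). Of the 8 Langerhans and dendritic cell markers, 5 of 7 tested were higher in SKO, beside 11.5% called higher over all genes tested. The 8 markers summed to 335 to 469 CPM in SKO and 245 to 310 CPM in CTR. Of the 8 T cell markers, 3 of 4 tested were higher, beside the same 11.5%, with 15.7 to 28.7 CPM in SKO and 8.60 to 14.7 CPM in CTR. The part of these cells in the Mmp9 result was not tested, and in such bulk samples a change in the number of cells of a type and a change in RNA per cell cannot be told apart.

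Mmp2 encodes gelatinase A, which shares substrates with gelatinase B, and is abundant in stromal cells (ENSMUSG00000031740.7, chromosome 8, 92827291 to 92853420). It had 92.9, 80.1, 48.9 and 47.6 CPM in SKO 1 to 4, against 86.8, 57.4, 41.7 and 60.5 CPM in CTR 1 to 4. The groups overlapped almost fully and each held high and low libraries. The log2 fold change was 0.13 (SE 0.26, adjusted p = 0.747), and it was -0.065 without SKO 1 and -0.019 without CTR 3. The 10 fibroblast markers summed to 27.3 to 69.8 CPM in SKO and 51.8 to 68.7 CPM in CTR. Dcn was the highest of them in every library, at 11.8 to 51.0 CPM in SKO and 29.9 to 33.5 CPM in CTR, while Lum and Dpt did not pass 0.337 CPM in any library. The collagen genes Col1a1, Col1a2 and Col3a1 were highest in CTR 2, at 4.52, 5.77 and 7.17 CPM. The next highest library was SKO 4 for Col1a2 and Col3a1, at 4.02 and 4.77 CPM, and SKO 1 for Col1a1, at 2.99 CPM. Of the 6 tested, 1 was lower in SKO, Thy1, which epidermal T cells also carry, beside 12.2% called lower over all genes tested.

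Timp2 encodes the inhibitor that, together with membrane-bound MMP14, presents the proenzyme of MMP2 for activation (ENSMUSG00000017466.9, chromosome 11, 118301069 to 118355740). Its level was 126, 126, 125 and 107 CPM in SKO 1 to 4, and 136, 135, 122 and 110.1 CPM in CTR 1 to 4. The log2 fold change of -0.06 had an SE of 0.09 (adjusted p = 0.662). Mmp14, the gene of the membrane-type enzyme of that complex (ENSMUSG00000000957.9, chromosome 14, 54431612 to 54445364), had 82.0, 63.1, 60.8 and 70.2 CPM in SKO 1 to 4, and 83.9, 74.4, 74.2 and 85.3 CPM in CTR 1 to 4. SKO 2, SKO 3 and SKO 4 were below all CTR libraries and SKO 1 lay among them. The log2 fold change of Mmp14 was -0.20 (SE 0.10, adjusted p = 0.169). Without SKO 1 it was -0.29 and passed the threshold (adjusted p = 0.0469).

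Mmp15, which encodes a further membrane-type enzyme (ENSMUSG00000031790.7, chromosome 8, 95352268 to 95375080), had 44.9, 47.4, 41.0 and 38.1 CPM in SKO 1 to 4, against 46.7, 40.5, 31.7 and 34.9 CPM in CTR 1 to 4. Mmp28 encodes epilysin, an enzyme of keratinocytes that carries a furin cleavage site in its propeptide (ENSMUSG00000020682.17, chromosome 11, 83440768 to 83463071). It had 17.8, 13.1, 14.9 and 16.5 CPM in SKO 1 to 4, against 18.1, 13.2, 13.3 and 12.2 CPM in CTR 1 to 4. Both genes overlapped between the groups, with log2 fold changes of 0.16 for Mmp15 (SE 0.12, adjusted p = 0.382) and 0.14 for Mmp28 (SE 0.15, adjusted p = 0.526). Mmp11 encodes stromelysin-3, an enzyme that is activated inside the cell by furin (ENSMUSG00000000901.15, chromosome 10, 75923222 to 75936496). Its level was 1.26, 0.961, 1.402 and 0.847 CPM in SKO 1 to 4, and 1.08, 1.49, 1.73 and 1.22 CPM in CTR 1 to 4 (log2 fold change -0.30, SE 0.25, adjusted p = 0.405). Of the 2778 exon bases of Mmp11, 155 overlap exons of Chchd10 on the opposite strand, and no source used here says whether the counting used strand. Chchd10 had 8.15 to 15.1 CPM, above Mmp11 in every library, and its part in the Mmp11 counts was not tested. Of the 3874 exon bases of Mmp28, 466 overlap exons of 1700020L24Rik on the opposite strand, a gene with at most 0.141 CPM in any library.

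Mmp3 encodes stromelysin-1, a broad protease that also activates other proMMPs (ENSMUSG00000043613.7, chromosome 9, 7445822 to 7455975). It had 35, 10, 20 and 21 counts in SKO 1 to 4, against 71, 24, 22 and 90 counts in CTR 1 to 4. In CPM these were 1.83, 0.506, 1.00 and 1.11 in SKO and 3.64, 1.15, 1.36 and 4.24 in CTR. CTR 1 and CTR 4 were high, while CTR 2 and CTR 3 lay within the SKO range. The log2 fold change of -1.23 did not pass the threshold of the edgeR test (SE 0.48, adjusted p = 0.0912) and passed that of DESeq2 (adjusted p = 0.0457), where 27.5% of genes were called. Without CTR 4 it was -0.89 and without SKO 1 it was -1.58.

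Timp3 encodes an inhibitor that is bound to the extracellular matrix and that also blocks ADAM17, the protease that releases TNF and EGFR ligands from cells (ENSMUSG00000020044.13, chromosome 10, 86300372 to 86349506). It was the most abundant of the 10 genes in CPM in all CTR libraries. Its level was 114, 202, 194 and 137 CPM in SKO 1 to 4, and 252, 284, 229 and 218 CPM in CTR 1 to 4. All SKO libraries were below all CTR libraries, SKO 2 and SKO 3 by little and SKO 1 and SKO 4 by more. Mean levels were 162 ± 43.1 CPM in SKO and 246 ± 29.2 CPM in CTR (SD, n = 4 each), 1.52-fold lower in SKO (log2 fold change -0.60, SE 0.17, adjusted p = 0.0313). The call ended without SKO 4 (adjusted p = 0.0820), CTR 1 (0.0695), CTR 2 (0.0820) or CTR 3 (0.0532), and without SKO 4 and CTR 2 together (log2 fold change -0.46, adjusted p = 0.172), with 0.00344 to 0.172 over all alternatives. Exons of Timp3 share 1733 of 8144 bases with exons of Syn3 on the opposite strand, and Syn3 itself had at most 0.871 CPM in any library.

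The proximal promoters of the member that fell and of the low-level stromelysin gene are shown because AP-1, the dimer of FOS and JUN proteins, is a classic regulator of stromelysin and collagenase genes. RefSeq (GRCm38.p6) matched 8 of the 10 genes, all but Mmp2 and Mmp9. The AP-1 motif TGANTCA, which reads the same on both strands, was searched from 250 bases before to 50 bases after each start. It was found in 1 of the 8 genes, Mmp3, and in 7.81% of the 32851 promoters of the table. The Mmp3 stretch is chr9:7445572-7445821 on the plus strand, with the motif in capitals, which begins 46 bases before the start. The Timp3 stretch is chr10:86300162-86300371 on the plus strand and holds no match, and ends where the GENCODE gene begins.
Mmp3: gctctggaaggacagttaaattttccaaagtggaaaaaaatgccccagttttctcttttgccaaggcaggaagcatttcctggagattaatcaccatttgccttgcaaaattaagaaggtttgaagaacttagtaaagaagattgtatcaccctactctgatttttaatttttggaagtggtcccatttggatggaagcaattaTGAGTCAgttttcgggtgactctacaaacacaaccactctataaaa
Timp3: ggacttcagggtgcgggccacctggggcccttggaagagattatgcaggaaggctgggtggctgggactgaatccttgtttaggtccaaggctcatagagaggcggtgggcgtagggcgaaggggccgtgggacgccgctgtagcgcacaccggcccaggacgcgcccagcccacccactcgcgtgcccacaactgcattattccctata

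Hair genes were lower in SKO together with Timp3. The hair shaft and matrix list, with 10 of its 11 genes found in the table, summed to 211, 766, 1186 and 361 CPM in SKO 1 to 4, and to 2335, 4030, 3948 and 2838 CPM in CTR 1 to 4. Of the 10 tested genes, 9 were lower in SKO, beside 12.2% called lower over all genes tested. SKO 1 and SKO 4 were the lowest 2 libraries for both Timp3 and the hair list, while SKO 2 and SKO 3 changed places between them, and within CTR the orders differed too. The part of hair follicle cells in the Timp3 result was not tested. The dermal papilla and sheath list summed to 9.75 to 24.0 CPM in SKO and 58.2 to 74.1 CPM in CTR, with Hhip and Lef1 (the second also a gene of hair matrix epithelium) lower and the other 2 tested genes not past the threshold, and Corin, which marks the papilla, at no more than 0.150 CPM in any library.

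**Figure D2:**
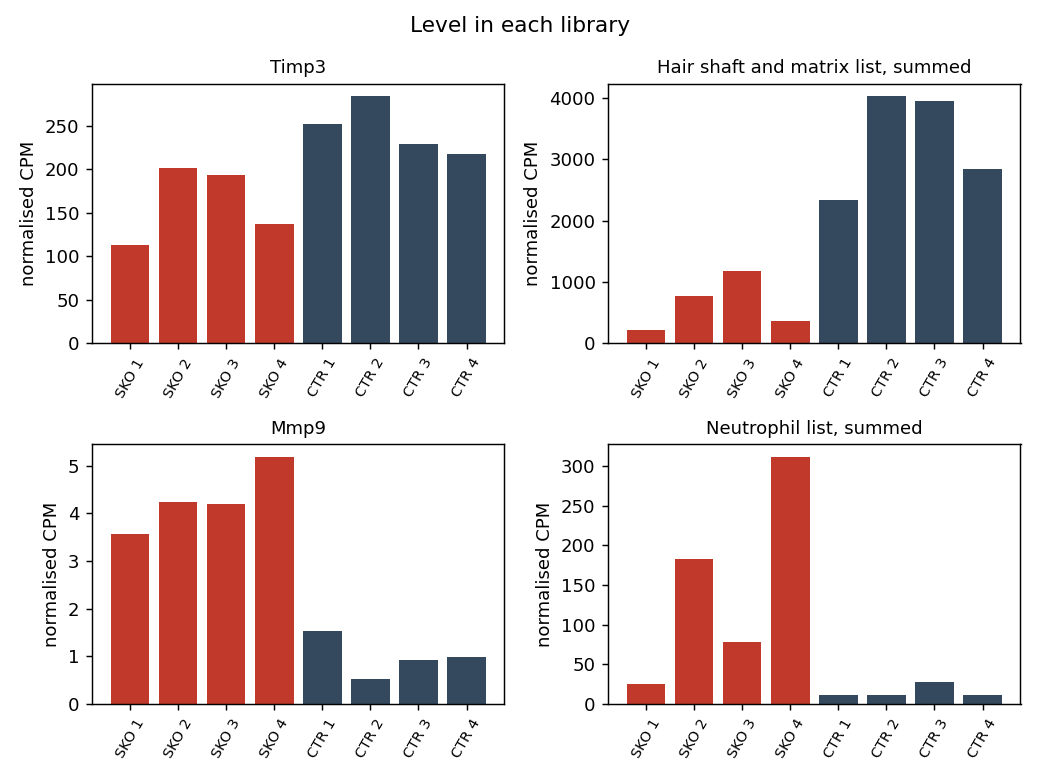
Bars give the normalised CPM in each library, SKO at left and CTR at right, of Timp3 beside the summed hair shaft and matrix list (top) and of Mmp9 beside the summed neutrophil list (bottom). SKO 1 and SKO 4 are lowest for Timp3 (114 and 137 CPM) and for the hair list (211 and 361 CPM), and Mmp9 (3.56 to 5.19 CPM) and the neutrophil list (25.8 to 311 CPM) rank the SKO libraries in the same order. SKO 2 and SKO 3 are nearly level for Mmp9, at 4.25 and 4.21 CPM.

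Timp1, the soluble inhibitor with a high affinity for MMP9, had few counts in all libraries (ENSMUSG00000001131.11, chromosome X, 20870166 to 20874735). It had 12, 9, 9 and 10 counts in SKO 1 to 4, against 12, 9, 9 and 16 counts in CTR 1 to 4. Levels were 0.516 ± 0.0835 CPM in SKO and 0.589 ± 0.133 CPM in CTR (SD, n = 4 each), with a log2 fold change of -0.20 (SE 0.27, adjusted p = 0.656). The difference was smaller than its SE. The floor of 3 counts in a library was 0.141 to 0.186 CPM.

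AP-1 and ETS transcription factor genes were measured too, since both families are known to act on MMP genes. None of 7 FOS and JUN genes passed the edgeR test (lowest adjusted p = 0.0900, with 2 at an unadjusted p under 0.05, 1 called by DESeq2 and 0 by limma-voom). Of the 12 genes of the AP-1 and ETS list, 3 rose and 1 fell, beside 23.7% called over all genes tested, with a median log2 fold change of 0.20. The ETS factor gene Ets1 rose to 10.8 ± 0.795 CPM in SKO, against 4.29 ± 0.774 CPM in CTR (log2 fold change 1.33, adjusted p = 0.000513). Elk3 rose 2.19-fold (adjusted p = 0.00465) and Etv5 1.41-fold (adjusted p = 0.0300). Ets2 fell to 195 ± 15.1 CPM in SKO, against 256 ± 19.1 CPM in CTR (adjusted p = 0.00922). Without SKO 2, SKO 4, CTR 1 or CTR 3 the Etv5 call ended (adjusted p = 0.0579 to 0.0789), and without SKO 4 and CTR 2 together the Ets2 call ended (0.0542).

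Levels of different genes were compared per kilobase of annotated exon (RPKM, here the normalised CPM per kilobase). In SKO the order of mean levels was Timp2, Mmp2, Timp3, Mmp14, Mmp15, Mmp28, Mmp9, Mmp3, Timp1 and Mmp11, and in CTR it was Timp2, Timp3, Mmp2, Mmp14, Mmp15, Mmp28, Mmp3, Timp1, Mmp11 and Mmp9. Mmp9 was thus the seventh gene in SKO, at 1.22 ± 0.189 RPKM, and the last in CTR, at 0.281 ± 0.117 RPKM (SD, n = 4 each). Neighbours that overlapped in SKO were Mmp2 and Timp3, Mmp9 and Mmp3, and Mmp3 and Timp1. In CTR the overlapping neighbours were Timp2 and Timp3, Mmp2 and Mmp14, and the 4 lowest genes with each other in turn. Timp3 stood at 19.9 ± 5.29 RPKM in SKO and 30.2 ± 3.59 RPKM in CTR, beside 31.0 ± 2.31 RPKM of Timp2 in SKO and 32.3 ± 3.15 RPKM in CTR.

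**Figure D3:**
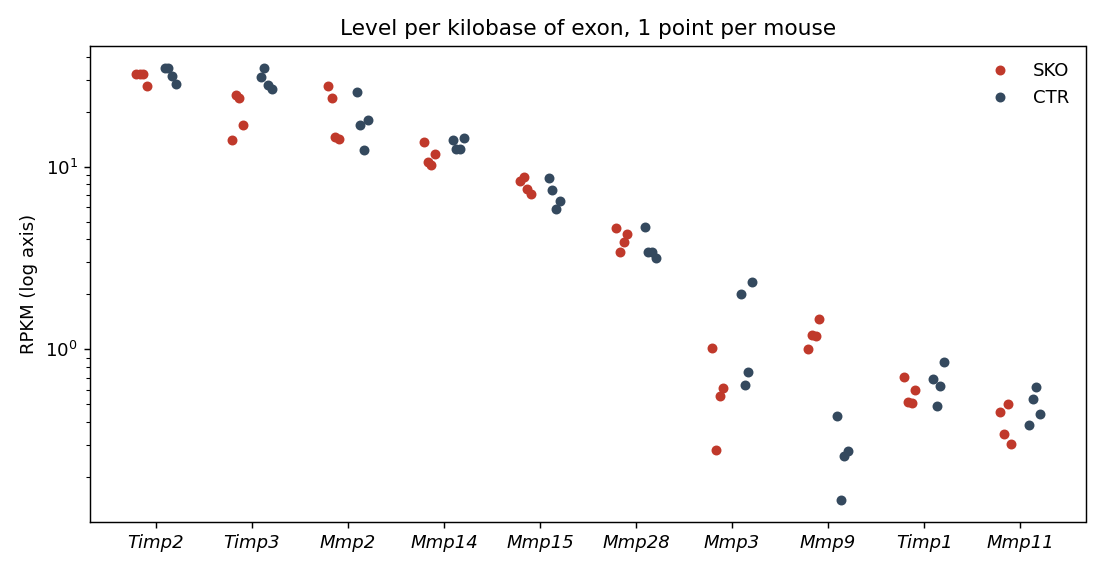
RPKM of the 10 genes on a log axis, ordered by the mean over all libraries, 1 point per mouse, with SKO left of CTR for each gene. Timp2, Timp3 and Mmp2 are at the top, and Mmp9 has SKO points between 1.01 and 1.47 RPKM and CTR points between 0.150 and 0.434 RPKM.

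Summed over the 7 proteases, levels were 56.7, 48.4, 38.4 and 39.6 RPKM in SKO 1 to 4, against 56.0, 41.7, 35.8 and 45.0 RPKM in CTR 1 to 4. Summed over the 3 inhibitors, they were 46.9, 57.5, 56.4 and 45.0 RPKM in SKO 1 to 4, and 66.6, 70.1, 60.2 and 55.9 RPKM in CTR 1 to 4. The ratio of the protease sum to the inhibitor sum was 1.21, 0.841, 0.680 and 0.879 in SKO 1 to 4, and 0.841, 0.596, 0.595 and 0.804 in CTR 1 to 4. Both sums and the ratio overlapped between the groups, with SKO 1 at the highest ratio. Mmp9 made up 1.78% to 3.70% of the protease sum in SKO and 0.358% to 0.775% in CTR, so the rise of this gene was a small part of the protease transcripts. Timp3 made up 29.7% to 43.1% of the inhibitor sum in SKO and 46.5% to 49.8% in CTR. These are transcript levels, and enzyme activity was not measured.

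The rest of the family was scarce. Of 17 other MMP and TIMP genes, 6 had enough counts for the edgeR test and 0 were called, beside 23.7% called over all genes tested. Of the 6, 2 had an unadjusted p under 0.05, and DESeq2 and limma-voom called 0. Mmp17, a membrane-anchored MMP, had 5.02 ± 0.662 CPM in SKO and 3.66 ± 0.615 CPM in CTR (log2 fold change 0.45, SE 0.17, adjusted p = 0.0763), and it passed the threshold without CTR 2 (adjusted p = 0.0443). Mmp25, whose product is also membrane-anchored, had 1.32 ± 0.337 CPM in SKO and 0.849 ± 0.268 CPM in CTR (adjusted p = 0.139). Mmp24, outside the rule for named genes, had the lowest adjusted p of the 6 (0.0579, log2 fold change 0.75). Its levels were low, at 0.784 ± 0.0843 CPM in SKO and 0.466 ± 0.110 CPM in CTR, and the groups did not overlap. The median log2 fold change of the 6 was 0.51. Mmp7 had no count in any library. The collagenase gene Mmp13, read here after its values were seen, had 22, 13, 16 and 16 counts in SKO 1 to 4 and 25, 8, 4 and 30 counts in CTR 1 to 4 (adjusted p = 0.975).

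Other genes that act on MMPs were measured beside them. Of 19 activators and further inhibitors, 16 were tested, 3 rose and 0 fell, beside 23.7% called over all genes tested, and the median log2 fold change was 0.08. Lcn2 encodes lipocalin-2, an antimicrobial protein that in humans forms a complex with MMP9, and had 17.1, 17.8, 12.7 and 37.6 CPM in SKO 1 to 4, against 4.15, 3.13, 5.63 and 5.32 CPM in CTR 1 to 4. All SKO libraries were above all CTR libraries, and SKO 4 was the highest for both Lcn2 and Mmp9. The rise of Lcn2 was 4.68-fold (adjusted p = 0.00198). Cd44, a hyaluronan receptor that holds MMP9 at the cell surface, rose to 533 ± 21.4 CPM in SKO, against 385 ± 56.4 CPM in CTR (adjusted p = 0.0114). Bsg encodes basigin, also named extracellular matrix metalloproteinase inducer, and rose to 313 ± 14.1 CPM in SKO, against 245 ± 17.8 CPM in CTR (adjusted p = 0.00925). Without SKO 4 and CTR 2 the calls of Cd44 and Bsg ended (adjusted p = 0.0684 and 0.0687).

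Among 19 genes of the related ADAM, ADAMTS and astacin proteases, 14 were tested, 1 rose and 4 fell, beside 11.5% called higher and 12.2% called lower over all genes tested, with a median log2 fold change of -0.14. Adamts5, an aggrecanase gene, rose to 14.8 ± 2.72 CPM in SKO, against 6.41 ± 0.836 CPM in CTR (2.30-fold, adjusted p = 0.00102). Bmp1, which encodes the procollagen C-proteinase, fell to 50.8 ± 5.59 CPM in SKO, against 74.5 ± 4.76 CPM in CTR (adjusted p = 0.00280). Its relative Tll1 had 2.08 ± 0.860 CPM in SKO and 6.15 ± 3.25 CPM in CTR (log2 fold change -1.55, adjusted p = 0.0289), and Adamts9 had 7.18 ± 1.89 CPM in SKO and 13.97 ± 5.37 CPM in CTR (adjusted p = 0.0319). The Tll1 call ended without SKO 1, SKO 4, CTR 1, CTR 2 or CTR 3 (adjusted p = 0.0547 to 0.0811), and the Adamts9 call without SKO 1, SKO 2, SKO 4, CTR 2 or CTR 3 (adjusted p = 0.0509 to 0.0812). Without SKO 4 and CTR 2 together the log2 fold change was -1.04 for Tll1 (adjusted p = 0.163) and -0.54 for Adamts9 (0.149), and limma-voom did not call Tll1 (0.0740). Adam17, the protease that TIMP3 blocks, was read after its values were seen and had 87.9 ± 7.55 CPM in SKO and 92.9 ± 2.69 CPM in CTR (adjusted p = 0.458).

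Of 19 tested genes for basement membrane and matrix proteins, among them substrates of these enzymes, 6 were lower in SKO and 0 were higher, beside 12.2% called lower and 11.5% called higher over all genes tested, with a median log2 fold change of -0.27. Fn1, the fibronectin gene, fell to 15.6 ± 4.22 CPM in SKO, against 32.1 ± 8.88 CPM in CTR (2.06-fold, adjusted p = 0.00914). The collagen IV chain genes Col4a6 and Col4a5 fell 1.76-fold and 1.496-fold (adjusted p = 0.00446 and 0.0144). The laminin chain gene Lamb1 fell to 29.3 ± 7.98 CPM in SKO, against 46.8 ± 5.16 CPM in CTR (adjusted p = 0.0221). The Lamb1 call ended without SKO 4, CTR 2 or CTR 3 (adjusted p = 0.0520 to 0.0590), and without SKO 4 and CTR 2 together the calls of Lamb1 and Col4a5 ended (0.112 and 0.0764). The hair list fell beside these genes as it did beside Timp3, and its part in them was not tested.

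**Figure D4:**
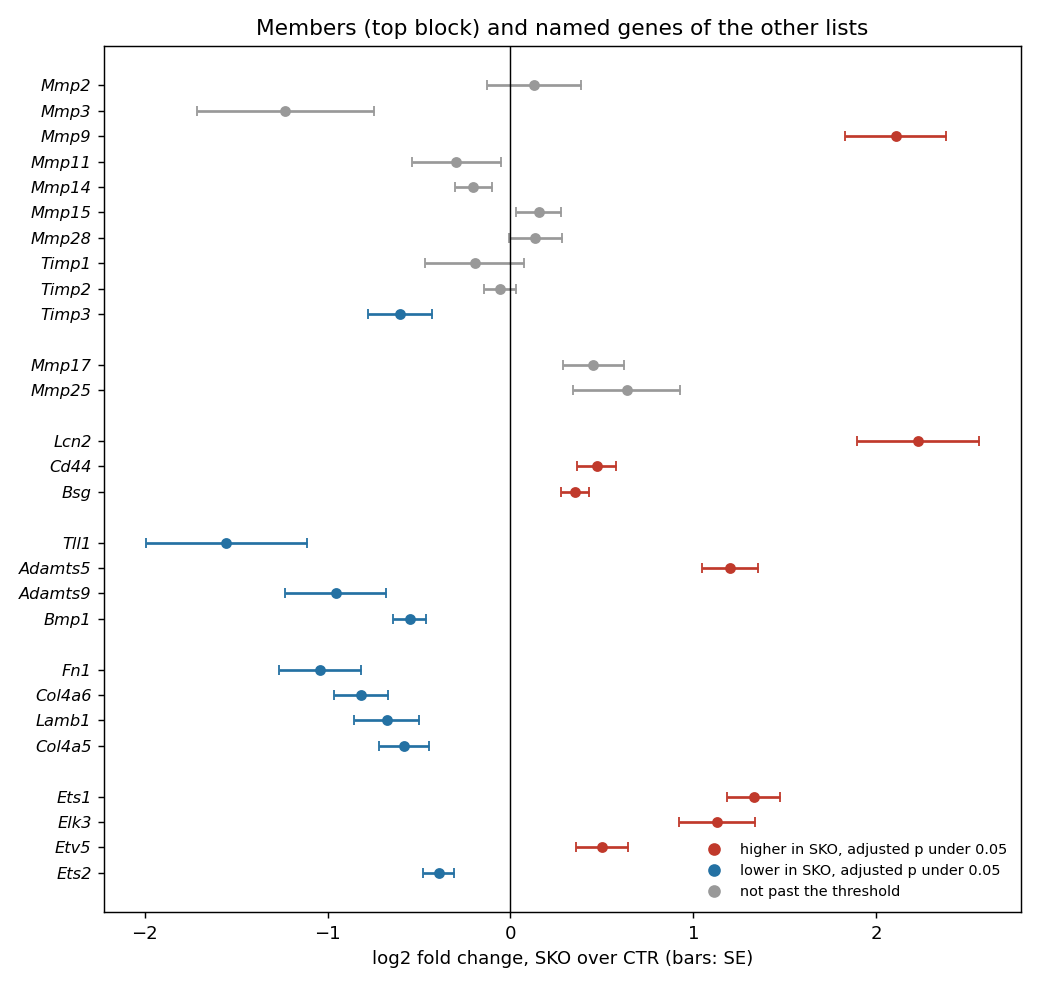
Log2 fold change of SKO over CTR with its SE for the 10 genes (top block) and for the named genes of the other 5 lists (lower blocks, in the order other MMP genes, activators and inhibitors, related proteases, matrix proteins, AP-1 and ETS genes). Red points are higher and blue points lower in SKO at an adjusted p under 0.05, and in the top block these are Mmp9 at 2.11 and Timp3 at -0.60.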

How the data were processed

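Processing used build GRCm38 and the tools STAR 2.4.1d, featureCounts 1.4.6, cutadapt 1.7.1, edgeR 3.8.6, Bowtie2 2.2.4, Cufflinks 2.1.1, SAMtools 1.1 and bedtools 2.17.0, with roles not given, per the submitters' processing notes. Per the labels' protocols, epidermis was peeled from tail skin after dispase, and stranded poly-A libraries were read as single 75 bp reads. The deposited values were raw counts per gene, not normalized. The strand setting and annotation of that counting are not stated.

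Symbols, positions and exon lengths came from GENCODE M21 (same build, 46488 of 46983 identifiers found). Counts were filtered by filterByExpr (default), normalized by trimmed mean of M values and tested with edgeR 4.0.16 in R 4.3.3 (quasi-likelihood test, group as the only term, 8 libraries, two-sided, Benjamini-Hochberg over 15638 genes). SEs were derived from the test statistic. RPKM was computed from normalised CPM and the union of annotated exons. Alternatives used DESeq2 1.42.0 and limma 3.58.1, other scalings and filters, and fewer libraries. The test was checked on simulated data. No pair of libraries agreed within sampling noise. Mice were labelled as separate animals. Replicate numbers follow sample order and were not used as pairs, although SKO and CTR mice of the same replicate number have close mouse numbers in the titles. Floors cover counting error only.

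The members and lists were chosen with earlier results of these data known. Named genes were the members, Ppp1r8 and, per other list, the up to 4 called genes that changed most and averaged 1 CPM or more, filled up to 2 with the most abundant. Genes named outside this rule are said to be so or are marker genes. No set test was run.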

Additional observations from a re-analysis of the deposited data

Results flagged for a closer look

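One library was far from the other 3 of its group among 56 groups checked (28 genes in SKO and in CTR). Timp2 had 107 CPM in SKO 4, while the other SKO libraries lay at 125 to 126 CPM. Chance flags about 1 in 20 such groups. The lowest CTR library for Timp2 was CTR 4, with 110.1 CPM.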

How the results depend on the processing

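Of the 10 genes, 2 were called. Mmp9 kept its call under all 17 alternatives, with log2 fold changes of 1.79 to 2.397. Leaving out 1 library at a time gave 1 to 3 called members and 2589 to 4370 called genes, against 3700 with all 8. Without SKO 4 and CTR 2, an alternative chosen after seeing the data, 1 member (Mmp9) and 1708 genes were called, in a fit of fewer samples. Timp3 kept its direction under all alternatives and lost its call in 5. DESeq2 called Mmp3 in addition, and the fit without SKO 1 called Mmp14. Directions turned for uncalled genes only: Mmp2 was -0.065 without SKO 1 and -0.019 without CTR 3 (-0.065 to 0.338 leaving out 1 library), Timp2 was 0.030 without SKO 4 and CTR 2, and Ppp1r8 was 0.048 without SKO 2 (-0.212 to 0.048 leaving out 1 library). With the stricter count filter Timp1 was not tested and gave no value. The median log2 fold change of all genes lay between -0.0043 and 0.023 under all alternatives. No paired analysis was run, since the labels state no litter, batch or pair. The mouse numbers in the sample titles lie close together for SKO and CTR mice of the same replicate number. Whether such mice shared a litter or batch is not stated, and a fit that pairs them was not tried. Timp1, Mmp11, Mmp3 and, in CTR, Mmp9 rest on low counts.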

Other observations

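Mmp12, which encodes the macrophage metalloelastase, had too few counts for the main test and was picked out after its values were seen. It had 12, 10, 20 and 6 counts in SKO 1 to 4, against 2, 2, 0 and 2 counts in CTR 1 to 4. All SKO libraries were above all CTR libraries, while 26.2% of the genes in the main test also had groups that did not overlap. With no count filter Mmp12 was called higher in SKO (log2 fold change 2.91, SE 0.59, edgeR adjusted p = 0.00359), where 13.6% of 26685 genes were called. Every CTR count of Mmp12 was below the floor of 3 counts in a library, so the size of this rise is poorly measured. Of the 7 macrophage and monocyte markers, Lyz2 had 8, 4, 14 and 5 counts in SKO 1 to 4, against 4, 3, 3 and 1 counts in CTR 1 to 4. Cd14 had 2.86 ± 0.492 CPM in SKO and 1.84 ± 0.754 CPM in CTR (edgeR adjusted p = 0.136), Csf1r had 12.98 ± 1.49 CPM in SKO and 10.8 ± 2.88 CPM in CTR (0.305), and Cd68 had 4.67 ± 0.795 CPM in SKO and 4.25 ± 0.423 CPM in CTR (0.593). The untested Adgre1, Mrc1 and Ly6c2 did not pass 0.501 CPM in any library. The part of macrophages in the Mmp12 counts was not tested.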
